A study of Mus musculus with 56 samples.

Results

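The response to TGFβ was examined in breast cancer cells with a β-catenin dm/- genotype, in which the dm allele of β-catenin stands beside a deleted allele. These cells made up 4 of the 56 samples of the series, 2 cultured without and 2 with TGFβ at 2 ng/ml for 4 days. The samples were chosen by the genotype and treatment in their labels, and no measured value entered the choice. The treatment notes attached to the same samples speak of Pygo2 wild-type and mutant lines, whereas the genotype labels, which were followed here, give β-catenin alleles only. The labels do not spell out what the dm allele changes. All groups used here came from tumors of the mammary gland of FVB/N mice carrying the PyMT transgene, which expresses the polyoma middle T oncogene under the MMTV promoter. The untreated cells of each group shared its genotype and culture time. The comparison groups were dm/fl cells, which carry the dm allele beside a floxed allele, and fl/fl cells, which carry floxed alleles without the dm allele, each with 2 untreated and 2 treated samples of the same experiment. The replicates are described as biological duplicates, but the labels do not say whether they were different cell lines or cultures of 1 line. The p-values therefore measure a spread between duplicates that may be technical. For each gene this spread was shared over all 28 conditions of the series, so it is not that of the dm/- samples alone. A genotype cannot be told apart from the cell line that carries it.

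TGFβ binds a complex of type II and type I receptors, which phosphorylates SMAD2 and SMAD3. These enter the nucleus with SMAD4 and switch genes on or off, among them inhibitors of the pathway itself. In mammary epithelial tumor cells TGFβ is known for slowing proliferation and for epithelial-mesenchymal transition (EMT), in which cells lose epithelial junctions and polarity and gain vimentin, fibronectin and contractile fibers. β-catenin takes part in both cell adhesion, as a partner of E-cadherin, and Wnt signaling, as a coactivator of TCF/LEF transcription factors.

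In the 4 dm/- samples 24.8 to 30.0 M reads were assigned to genes, compared with 22.4 to 33.7 M over all 56 samples. Values are given in CPM, which here means reads per M reads of the effective library size of each sample, and 1 read was worth 0.0306 to 0.0379 CPM in the 4 samples. Epithelial genes were well expressed: in the untreated cells Krt8 had 245 and 191 CPM, Krt18 534 and 585 CPM and Epcam 243 and 175 CPM, whereas the luminal markers Krt19 and Pgr were at 0 in all 4 samples. Ptprc, Adgre1 and Cd3e of leukocytes, Cdh5 of endothelium, Adipoq of adipocytes and Thy1 and Lum of fibroblasts were at 0 in all 4 samples as well. The macrophage genes Csf1r and Cd68 were detected, Csf1r with 25.9 and 22.8 CPM in the untreated and 40.2 and 45.1 CPM in the treated cells and Cd68 with 62.2 and 55.02 CPM and 27.2 and 12.9 CPM. Of the 8 macrophage and leukocyte markers 4 were expressed highly enough to be tested, and Aif1 rose while Cd68 fell. Over these 8 markers the sum was 78.3 to 88.7 CPM without and 60.3 to 70.1 CPM with TGFβ, and over the 8 fibroblast markers 6.75 to 7.57 CPM without and 20.6 to 27.3 CPM with TGFβ. In such bulk samples a smaller share of cells of 1 type and less RNA per cell cannot be told apart.

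TGFβ changed the expression of 842 genes in dm/- cells, 506 of them higher and 336 lower. A gene was counted as changed when limma gave it a Benjamini-Hochberg adjusted p of 0.05 or less and when its log2 fold change was 1 or more in size. Fold changes are on the log2(CPM + 1) scale and are given with their standard error (SE). On this scale the change of a gene near or below 1 CPM is understated. Of the 13754 genes tested, 6.12% had thus changed, 3.68% higher and 2.44% lower. The counts for gene lists and markers in dm/- cells are to be read beside these shares. The treated and untreated values did not overlap for 505 of the 506 higher genes and 335 of the 336 lower genes. Because the genes were called on the same values, this adds no support to the calls. The change was at least 4-fold for 170 of the higher and 126 of the lower genes. Among the higher genes 336 moved further in treated replicate 2 and 170 in treated replicate 1, and among the lower genes these numbers were 234 and 101. The counts fell to 294 higher and 174 lower genes without untreated replicate 2, to 313 and 169 without treated replicate 2, to 350 and 190 without untreated replicate 1, and to 420 and 312 without treated replicate 1. With edgeR on the whole reads, 525 genes were higher and 333 lower, and these included 433 of the 506 and 276 of the 336 genes.

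Among the genes with at least 10 CPM in the higher group, the largest increase was that of Tnc, which encodes the matrix protein tenascin C (Entrez 21923, chromosome 4 from 63959785 to 64047015 of GRCm38). Tnc had 6.997 and 6.26 CPM in the untreated and 4544 and 6075 CPM in the treated samples (log2 fold change 9.43, SE 0.63, adjusted p = 7.3e-13). The WNT1-inducible matricellular gene Ccn4 rose from 0.306 and 0.141 CPM to 235 and 335 CPM (log2 fold change 7.85, SE 0.63, adjusted p = 6.1e-11). Vim, encoding the intermediate filament protein vimentin (Entrez 22352, chromosome 2 from 13574311 to 13582826), had 0.0917 and 0.212 CPM without TGFβ, or 3 and 6 reads, and 67.2 and 242 CPM with TGFβ (log2 fold change 6.81, SE 0.77, adjusted p = 1.1e-07). Both untreated samples were thus close to the limit of detection, set at 3 reads, while the treated samples differed from each other by more than for Tnc. Palladin, an actin-binding protein encoded by Palld, rose from 1.22 and 0.813 CPM to 123 and 227 CPM (log2 fold change 6.39, SE 0.34, adjusted p = 2.5e-15). The calcium pump gene Atp2b4 rose from 1.80 and 0.955 CPM to 115 and 153 CPM (log2 fold change 5.83, adjusted p = 1.1e-10). Pdgfrb, the receptor tyrosine kinase of PDGF-responsive mesenchymal cells, rose from 0.306 and 0.495 CPM to 16.97 and 99.4 CPM (log2 fold change 4.93, adjusted p = 8.9e-06). Its treated replicates were far apart. The same order of the treated replicates was seen for the calcium channel gene Cacna1g (24.5 and 64.5 CPM), the transcriptional repressor gene Prdm1 (17.2 and 42.6 CPM), the hyaluronan synthase gene Has2 (84.1 and 509.6 CPM) and Itgb3 (14.4 and 45.8 CPM), the β3 integrin subunit. Their untreated levels were 0.519 and 0.248 CPM, 0.0611 and 0 CPM, 6.36 and 8.42 CPM and 0 in both samples, and their log2 fold changes 4.89, 4.77, 4.65 and 4.74 (adjusted p = 5.2e-14, 4.5e-09, 1.2e-04 and 3.9e-09). Against the limit of 3 reads in the untreated samples, Itgb3 was at least 283-fold higher after TGFβ, a bound that covers counting error only. In the untreated dm/- cells of the Wnt3a experiment Itgb3 and Prdm1 were at 0 and Vim had 1.47 and 4.39 CPM. These cells were cultured for 3 days instead of 4. They were not among the samples compared but entered the spread shared by all 28 conditions.

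The largest decreases included Tigit, better known as an immune checkpoint receptor of lymphocytes, which had 18.9 and 47.4 CPM without and 0.682 and 0.595 CPM with TGFβ (log2 fold change -4.24, SE 0.51, adjusted p = 3.5e-07). Of the macrophage and leukocyte markers given above, Ptprc, Adgre1 and Cd3e were at 0 and others were detected, with a sum that was lower after TGFβ, and their part in the fall of Tigit was not tested. Hhip, a secreted inhibitor of hedgehog ligands, fell from 49.2 and 23.5 CPM to 0.871 and 1.06 CPM (log2 fold change -4.16, SE 0.41, adjusted p = 7.8e-09). Areg encodes amphiregulin, a ligand of the EGF receptor and a mediator of mammary duct growth. It fell from 66.8 and 92.6 CPM to 7.65 and 6.21 CPM (log2 fold change -3.33, SE 0.68, adjusted p = 9.9e-04). The transmembrane glycoprotein gene Gpnmb fell from 234 and 161 CPM to 17.5 and 11.7 CPM (log2 fold change -3.67, adjusted p = 3.0e-08). Slc7a11, the cystine transporter that supplies glutathione synthesis, fell from 85.7 and 62.02 CPM to 6.59 and 4.69 CPM (log2 fold change -3.49, adjusted p = 0.00545). Mal2, which acts in apical transport of epithelial cells, fell from 95.4 and 83.98 CPM to 17.2 and 1.88 CPM (log2 fold change -3.64, adjusted p = 0.00389). Mal2 lost its call without treated replicate 2, and Slc7a11 without untreated replicate 1 or treated replicate 2. With 1 library left out the log2 fold change ranged from -4.97 to -2.31 for Mal2 and from -3.72 to -3.26 for Slc7a11. Slc25a48, Akr1c18, Ankrd22 and Plekhs1 completed the list with log2 fold changes of -3.93, -3.61, -3.45 and -3.42 (adjusted p = 1.8e-04, 5.7e-06, 2.2e-04 and 1.7e-05). The level of Plekhs1 was 26.7 and 33.7 CPM without and 2.42 and 1.45 CPM with TGFβ.

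**Figure D1:**
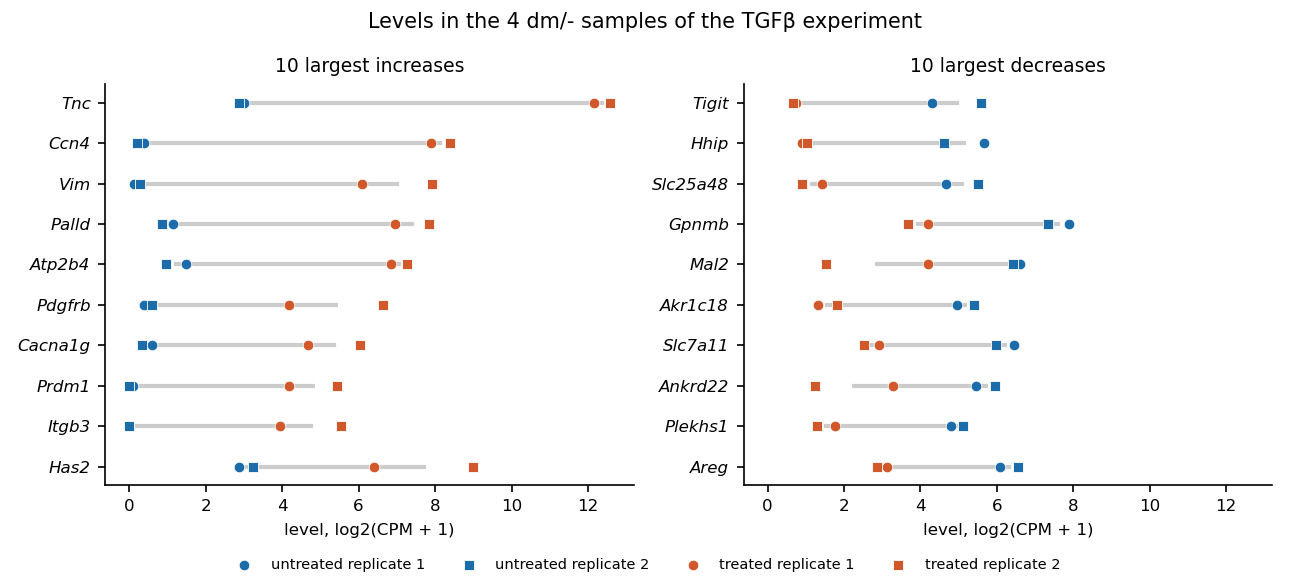
The 10 largest increases and 10 largest decreases in dm/- cells, with levels as log2(CPM + 1) on the horizontal axis. Each symbol is 1 sample, blue without and orange with TGFβ, circles for replicate 1 and squares for replicate 2, and the gray line joins the group means. For all 10 increases the orange square lies to the right of the orange circle. Only genes whose blue and orange symbols do not overlap were eligible for this figure.

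Promoter sequences were searched for short motifs of factors that act downstream of TGFβ and Wnt, and those of 4 of the genes above are shown because they hold a SMAD box or an E-box and belong to genes with opposite responses. The sequences are those of RefSeq for GRCm38.p6, run 5′ to 3′ along the gene from 250 bases before to 50 bases after the start site, and capitals mark CAGAC or its reverse complement GTCTG (SMAD box) and CAGGTG, the reverse complement of CACCTG (the E-box bound by Snail and Zeb repressors). Tnc on the minus strand of chromosome 4 (64046966 to 64047265) and Prdm1 on the minus strand of chromosome 10 (44458699 to 44458998) rose after TGFβ, and Areg on the plus strand of chromosome 5 (91139349 to 91139648) and Plekhs1 on the plus strand of chromosome 19 (56461387 to 56461686) fell.
Tnc: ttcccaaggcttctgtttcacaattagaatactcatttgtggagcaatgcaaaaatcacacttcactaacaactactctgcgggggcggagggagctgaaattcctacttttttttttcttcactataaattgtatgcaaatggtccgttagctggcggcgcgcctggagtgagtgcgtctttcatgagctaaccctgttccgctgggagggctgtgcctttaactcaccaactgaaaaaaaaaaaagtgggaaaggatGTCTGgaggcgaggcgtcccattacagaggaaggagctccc
Prdm1: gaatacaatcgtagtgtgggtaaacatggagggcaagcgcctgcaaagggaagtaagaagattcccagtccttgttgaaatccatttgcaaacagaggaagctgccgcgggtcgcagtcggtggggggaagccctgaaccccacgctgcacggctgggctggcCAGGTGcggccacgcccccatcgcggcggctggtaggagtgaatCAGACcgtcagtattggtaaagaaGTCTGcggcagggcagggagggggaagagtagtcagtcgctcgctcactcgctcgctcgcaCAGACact
Areg: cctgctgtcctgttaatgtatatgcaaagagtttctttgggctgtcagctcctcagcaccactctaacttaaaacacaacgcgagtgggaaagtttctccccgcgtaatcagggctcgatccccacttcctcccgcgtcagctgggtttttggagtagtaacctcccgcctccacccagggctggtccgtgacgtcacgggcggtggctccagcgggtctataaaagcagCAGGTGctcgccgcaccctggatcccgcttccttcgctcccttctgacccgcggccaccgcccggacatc
Plekhs1: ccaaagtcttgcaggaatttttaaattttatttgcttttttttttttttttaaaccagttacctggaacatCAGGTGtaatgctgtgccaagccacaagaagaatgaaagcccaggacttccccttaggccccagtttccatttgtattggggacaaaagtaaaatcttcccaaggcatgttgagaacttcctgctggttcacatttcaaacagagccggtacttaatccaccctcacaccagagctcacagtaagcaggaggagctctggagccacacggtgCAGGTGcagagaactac
Only the first listed start site of each gene was searched, so positions and shares hold for that site alone. For Prdm1 and Plekhs1 this site lies inside the annotated gene. Counted from the start site, the motif of Tnc began at position 10. Prdm1 had SMAD boxes at positions -43, -19 and 43 and an E-box at -87. The E-box of Areg began at -20 and those of Plekhs1 at -179 and 34. Promoters were given for 369 of the 506 higher, 254 of the 336 lower and 10829 of the 13754 tested genes. The E-box CACCTG, read on both strands, was present in 28.7% (73 of 254) of the promoters of lower genes, 17.9% (66 of 369) of those of higher genes and 17.7% (1921 of 10829) of all tested genes. For the SMAD box CAGAC these shares were 44.9% (114 of 254), 49.9% (184 of 369) and 47.3% (5125 of 10829). The AP-1 motif TGACTCA was found in 7.09% (18 of 254), 7.05% (26 of 369) and 3.95% (428 of 10829), and the TCF/LEF motif CTTTGAT in 2.36% (6 of 254), 2.44% (9 of 369) and 2.6% (282 of 10829). A match is a description of the letters and not a bound site, and these shares were not tested.

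The components that receive the TGFβ signal were examined first. Among 18 receptors and SMADs, 1 gene rose and none fell, a number near the 6.12% changed over all genes (median log2 fold change 0.28, compared with 0 over all genes tested). The level of Tgfbr1 was 295 and 307 CPM without and 361 and 538 CPM with TGFβ (log2 fold change 0.55, adjusted p = 0.854). That of Tgfbr2, the ligand-binding type II receptor, was 75.1 and 74.1 CPM and 102 and 92.8 CPM (log2 fold change 0.38, adjusted p = 0.614). Smad2, Smad3 and Smad4 had log2 fold changes of 0.22, 0.05 and 0.37 (adjusted p = 0.954, 1 and 0.243). The gene that rose was Acvr1, a type I receptor used mainly by BMPs, from 30.9 and 34.5 CPM to 66.05 and 80.5 CPM (log2 fold change 1.14, adjusted p = 0.00604). Of the 12 ligands and latency proteins 3 rose and 1 fell, compared with 3.68% and 2.44% of all genes tested. Ltbp1 and Ltbp2, which store latent TGFβ in the matrix, rose by 1.5 and 2.02 on the log2 scale (adjusted p = 9.5e-04 and 0.0138). Lrrc32, which presents latent TGFβ on the cell surface, rose by 2.81 (adjusted p = 0.00364). Fst, the activin antagonist follistatin, fell from 9.26 and 11.6 CPM to 1.82 and 0.595 CPM (log2 fold change -2.42, adjusted p = 0.00154). Ltbp1 had 77.9 and 135 CPM without and 199.9 and 426 CPM with TGFβ. The untreated dm/- cells of the Wnt3a experiment, cultured for 3 days instead of 4, had 342 and 410.0 CPM, within the range of the treated cells. Of these genes none passed each time 1 library was left out. Acvr1 and Ltbp1 failed without untreated replicate 1 (adjusted p = 0.0779 and 0.0768), Ltbp2 and Lrrc32 without untreated replicate 2 (adjusted p = 0.25 and 0.0646), Ltbp2 without treated replicate 1 (adjusted p = 0.0505), and all 5 genes without treated replicate 2 (adjusted p = 0.064 to 0.123).

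Of 11 inhibitors that SMADs are known to induce as feedback 3 rose and none fell (median 0.76), compared with 3.68% and 2.44% of all genes tested. Ldlrad4 and Pmepa1, both of which keep SMADs from the receptor, rose. Ldlrad4 had 22.7 and 13.2 CPM without and 58.9 and 61.3 CPM with TGFβ (log2 fold change 1.74, SE 0.31, adjusted p = 1.6e-04). Pmepa1 had 749.8 and 400.3 CPM and 2158 and 1468 CPM (log2 fold change 1.70, SE 0.46, adjusted p = 0.0147). The inhibitory SMAD gene Smad7 had 83.2 and 79.1 CPM and 185 and 159 CPM (log2 fold change 1.07, SE 0.32, adjusted p = 0.0311). Each of the 3 genes was higher in both treated samples than in both untreated samples. This held for 505 of the 506 higher genes and adds no support to the calls. Among 15 early targets 2 rose and 1 fell, beside the same shares. Ccn2, encoding connective tissue growth factor, rose from 73.3 and 79.2 CPM to 279 and 388 CPM (log2 fold change 2.10, adjusted p = 0.00511). Cdkn1a encodes the cell cycle inhibitor p21, which TGFβ is known to induce in many epithelial cells, and fell from 155 and 311 CPM to 72.4 and 72.8 CPM (log2 fold change -1.58, SE 0.36, adjusted p = 0.00368). Ldlrad4 passed each time 1 of the 4 libraries was left out. Smad7 failed whichever was left out (adjusted p = 0.0958 to 0.198). Pmepa1 failed without untreated replicate 2 and without treated replicate 1 (adjusted p = 0.31 and 0.17), and Cdkn1a without untreated replicate 2 (adjusted p = 0.213). Ccn2 failed without untreated replicate 1 and without treated replicate 2 (adjusted p = 0.0548 and 0.0897).

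Among the gene lists examined the mesenchymal markers had the highest median change. Over all genes tested 3.68% rose and 2.44% fell. Of 14 mesenchymal markers tested 9 rose and none fell (median log2 fold change 2.50), and these 9 genes passed each time 1 of the 4 libraries was left out. Beside Tnc, Vim and Pdgfrb these were Fn1, Ncam1, Itga5, Fbn1, Sparc and Thbs1. Fn1, encoding fibronectin (Entrez 14268, chromosome 1 from 71585473 to 71653280), rose from 1341 and 1074 CPM to 13439.8 and 10432 CPM (log2 fold change 3.30, SE 0.65, adjusted p = 6.9e-04). Its receptor subunit gene Itga5 rose from 59.9 and 66.5 CPM to 408 and 637 CPM (log2 fold change 2.99, SE 0.51, adjusted p = 9.4e-05). Ncam1, a neural cell adhesion molecule gained by epithelial cells in EMT, rose from 9.20 and 8.13 CPM to 98.01 and 145 CPM (log2 fold change 3.64, adjusted p = 3.8e-05). The matricellular gene Thbs1 rose from 2150.2 and 1471 CPM to 10662 and 7226 CPM (log2 fold change 2.30, adjusted p = 6.6e-05). Sparc rose from 93.8 and 109.6 CPM to 537 and 505 CPM (log2 fold change 2.35, adjusted p = 8.2e-04). The summed fibroblast markers given above were higher after TGFβ as well, with Thy1 and Lum at 0, and their part in the mesenchymal changes was not tested. Cdh2, encoding N-cadherin, had 12.1 and 15.1 CPM without and 15.6 and 25.3 CPM with TGFβ (log2 fold change 0.53, adjusted p = 0.642), which did not pass the test.

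Of the transcription factors that drive EMT, 2 of 15 rose and none fell (median 0.66), compared with 3.68% and 2.44% of all genes tested. Zeb1, a repressor of epithelial genes, had 1.99 and 3.995 CPM without and 16.8 and 58.1 CPM with TGFβ (log2 fold change 3.07, SE 0.52, adjusted p = 1.1e-04). Its treated values differed by more than 3-fold from each other. Foxf2, a forkhead factor of mesenchymal tissue, rose from 5.65 and 5.66 CPM to 20.4 and 31 CPM (log2 fold change 1.97, SE 0.32, adjusted p = 6.1e-05). Both genes passed each time 1 library was left out. Snai1 had 8.16 and 6.22 CPM and 21.9 and 27.1 CPM (log2 fold change 1.64, adjusted p = 0.214) and Zeb2 10.4 and 9.76 CPM and 21.4 and 33.4 CPM (log2 fold change 1.33, adjusted p = 0.206). In both cases the groups did not overlap, but the difference did not pass the test. Snai2 was at 0.0991 to 0.601 CPM in the 4 samples, close to the limit of detection.

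Of 17 transcription and splicing factors that maintain the epithelial state 6 fell and none rose (median -0.60), compared with 2.44% and 3.68% of all genes. Grhl1, a grainyhead factor that regulates junction genes, fell from 11.7 and 12.02 CPM to 1.97 and 0.694 CPM (log2 fold change -2.52, SE 0.40, adjusted p = 3.8e-05). Klf5, a Krüppel-like factor of proliferating epithelium, fell from 15.8 and 20.4 CPM to 2.23 and 3.70 CPM (log2 fold change -2.28, SE 0.31, adjusted p = 2.9e-06). Ovol1, a repressor of EMT genes, fell from 10.4 and 11.03 CPM to 2.42 and 1.12 CPM (log2 fold change -2.12, SE 0.44, adjusted p = 0.00137), and Klf4 from 171 and 65.5 CPM to 54.2 and 16.6 CPM (log2 fold change -1.78, SE 0.57, adjusted p = 0.0482). The remaining calls were Foxa1 and Ovol2 (log2 fold changes -1.63 and -1.03). Grhl1, Klf5 and Foxa1 passed each time 1 library was left out. Ovol1 failed without treated replicate 2 (adjusted p = 0.0588), and Klf4 and Ovol2 each failed without treated replicate 2 (adjusted p = 0.651 and 0.183) and without 1 of the untreated samples, replicate 1 for Klf4 and replicate 2 for Ovol2 (adjusted p = 0.545 and 0.263). With edgeR Klf4 did not pass either (adjusted p = 0.0802).

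Of 28 genes of epithelial adhesion and junctions 3 fell and 1 rose (median -0.42), compared with 2.44% and 3.68% of all genes tested. Crb3, an apical polarity protein that Snail and Zeb factors are known to repress, fell from 37.8 and 24.9 CPM to 5.98 and 1.02 CPM (log2 fold change -3.08, SE 0.59, adjusted p = 5.1e-04). The trafficking GTPase gene Rab25 fell from 52.98 and 43.9 CPM to 9.43 and 2.35 CPM (log2 fold change -3.06, SE 0.51, adjusted p = 7.2e-05) and the tight junction gene Marveld3 from 16.3 and 17.5 CPM to 7.42 and 3.57 CPM (log2 fold change -1.53, SE 0.35, adjusted p = 0.00368). The desmosomal plakophilin gene Pkp2 rose from 36.3 and 51.6 CPM to 98.5 and 145 CPM (log2 fold change 1.44, adjusted p = 0.00206). Of these 4 genes Rab25 passed each time 1 library was left out. Crb3, Marveld3 and Pkp2 failed without treated replicate 2 (adjusted p = 0.0653, 0.168 and 0.0828), Marveld3 also without untreated replicate 2 and Pkp2 without untreated replicate 1 (adjusted p = 0.0508 and 0.0725). Cdh1, encoding E-cadherin, had 495 and 447 CPM in the untreated and 502 and 140.4 CPM in the treated samples (log2 fold change -0.82, SE 0.34, adjusted p = 0.156). Treated replicate 1 was thus at the untreated level while treated replicate 2 was lower, and of the 4 libraries Cdh1 passed the threshold without treated replicate 1 only (adjusted p = 2.6e-04). Epcam (243 and 175 CPM without and 236 and 90.1 CPM with TGFβ) and the tight junction gene Ocln (87.1 and 90.6 and 66.3 and 20.8 CPM) had the same order of the treated samples. Keratins did not pass the test in either direction, with 14 genes tested and a median of 0.37. The largest fold change among them was that of Krt14, a basal keratin, with 121 and 49.8 CPM without and 516 and 239 CPM with TGFβ (log2 fold change 2.16, adjusted p = 0.246).

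**Figure D2:**
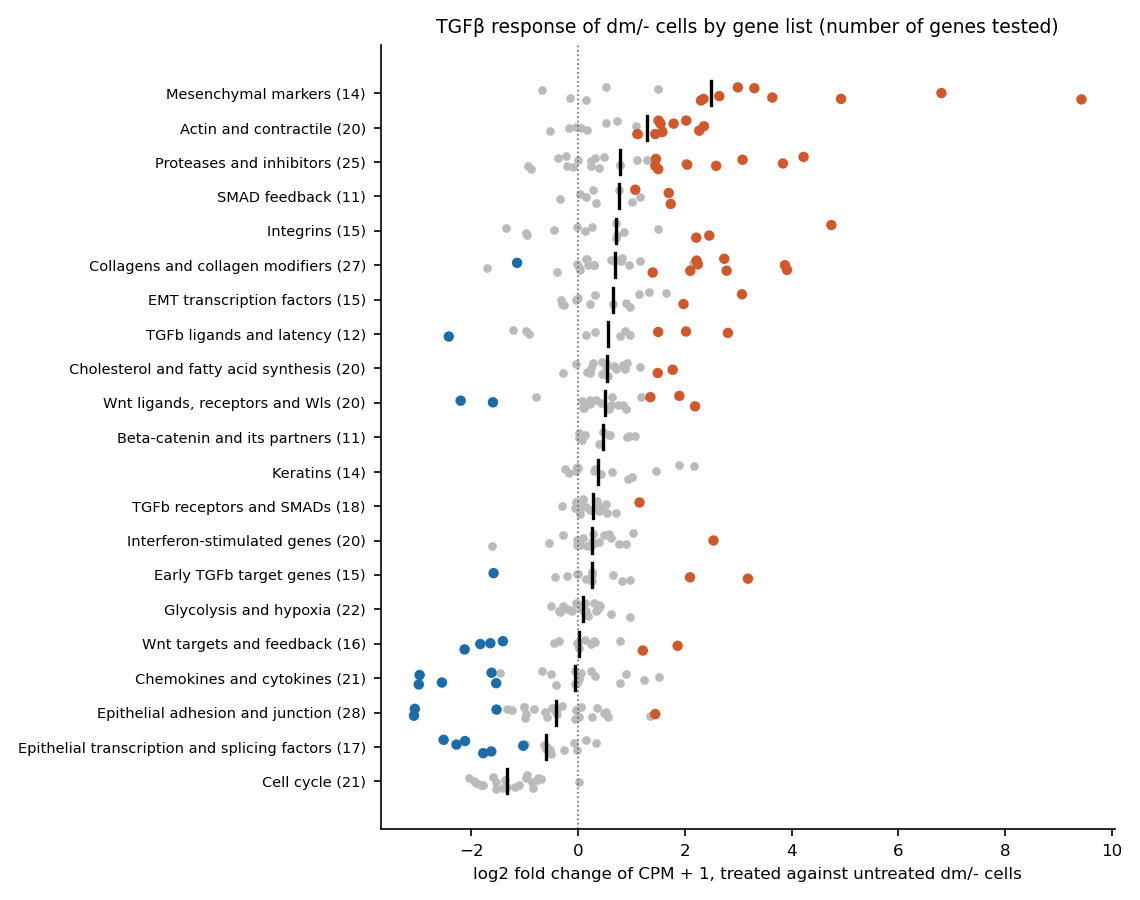
Log2 fold changes of CPM + 1 between treated and untreated dm/- cells for the members of 21 gene lists, with the number of genes tested in brackets. Each point is 1 gene, orange when higher and blue when lower at the threshold and gray otherwise, the black bar is the median of the list and the dotted line the median of all genes tested. The mesenchymal and contractile lists lie farthest to the right, with medians of 2.50 and 1.30, and the cell cycle list farthest to the left, with a median of -1.32 and no gene past the threshold.

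The treated replicates differed from each other in cell cycle and epithelial genes. Over 9157 genes averaging 10 CPM or more, 26 genes were more than 4-fold higher in treated replicate 1 and 60 in treated replicate 2, compared with 1 and 0 genes between the untreated replicates. All 21 cell cycle genes had their lowest value of the 4 samples in treated replicate 1. Their sum was 2193 and 2398 CPM in the untreated samples, 584 CPM in treated replicate 1 and 1688 CPM in treated replicate 2. The proliferation marker Mki67 had 144 and 135 CPM without and 15.98 and 166 CPM with TGFβ, and Top2a, a topoisomerase of dividing cells, 388 and 440.5 CPM and 45.3 and 296 CPM. None of the 21 genes passed the test in either direction (lowest adjusted p = 0.0716, for Mcm3, a subunit of the replicative helicase), and none passed without any 1 of the libraries. With edgeR none passed as well. At an unadjusted p of 0.05, 2 of the 21 genes were lower and 0 higher, but the share of all genes at this threshold was not determined. Of the 28 adhesion and junction genes 18 had their lowest value in treated replicate 2 and 1 in treated replicate 1. The share of all genes tested with their lowest value in either treated replicate was not determined. The counts of lowest values for these lists therefore stand without a background. Without treated replicate 1 the number of junction genes that fell was 8 instead of 3, and without treated replicate 2 it was 1. The labels do not tell what sets the treated replicates apart, and its part in the results was not tested.

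**Figure D3:**
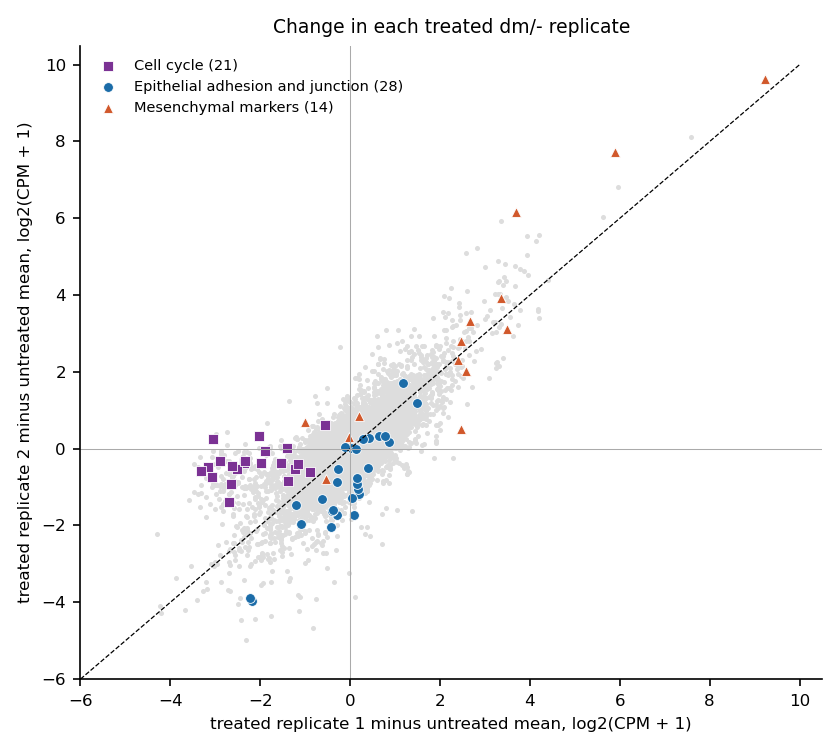
Change of each gene in the treated replicates of dm/- cells against the mean of the untreated samples, in units of log2(CPM + 1), with replicate 1 on the horizontal and replicate 2 on the vertical axis and the diagonal marking equal change. Gray points are all genes tested. Cell cycle genes (purple squares) lie above the diagonal with lower values in replicate 1, most junction genes (blue circles) lie below it, and of the 14 mesenchymal markers (orange triangles) the 9 that rose are above 2 in both replicates.

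Genes of the extracellular matrix and of its turnover rose in part in dm/- cells, where 3.68% of all genes tested rose and 2.44% fell. Of 27 collagens and collagen modifiers 8 rose and 1 fell (median 0.70). The fibrillar collagen V genes Col5a2 and Col5a3 both rose. Col5a2 went from 2.11 and 2.12 CPM to 33.3 and 63.2 CPM (log2 fold change 3.91, SE 0.48, adjusted p = 4.8e-07) and Col5a3 from 0.0611 and 0 CPM to 7.27 and 26.6 CPM (log2 fold change 3.87, SE 0.62, adjusted p = 4.2e-05). Col12a1, a collagen associated with fibrils, rose from 445 and 381 CPM to 1932 and 1621 CPM (log2 fold change 2.10, adjusted p = 0.00224). Col16a1 and Col6a1 had log2 fold changes of 2.78 and 2.74 (adjusted p = 0.0196 and 0.0248), but failed the test whichever of the 4 libraries was left out (adjusted p = 0.0583 to 0.191 and 0.0514 to 0.274), and Col6a1 failed with edgeR (adjusted p = 0.0511). Col5a2, Col5a3 and Col12a1 passed each time. The number of collagen genes that rose was 4 without untreated replicate 1, 3 without untreated replicate 2, 6 without treated replicate 1 and 3 without treated replicate 2. Of 25 proteases and inhibitors 8 rose and none fell (median 0.78), and in the same order of left-out libraries 3, 3, 5 and 2 rose. The macrophage elastase gene Mmp12 rose from 0.917 and 0.990 CPM to 25.6 and 48.98 CPM (log2 fold change 4.22, SE 0.62, adjusted p = 1.3e-05). Mmp19 rose from 6.75 and 4.74 CPM to 58.1 and 52.8 CPM (log2 fold change 3.08, SE 0.55, adjusted p = 2.0e-04). Both passed each time 1 library was left out. The gelatinase gene Mmp9 rose from 20.96 and 10.04 CPM to 92.3 and 529.8 CPM (log2 fold change 3.84, SE 0.86, adjusted p = 0.00301), with the treated samples more than 5-fold apart. Without untreated replicate 2 or treated replicate 2 Mmp9 failed the test (adjusted p = 0.0777 and 0.179), and the untreated dm/- cells of the Wnt3a experiment had 94.1 and 336 CPM, which overlaps the treated values. The metalloprotease inhibitor gene Timp1 had 8.89 and 9.16 CPM without and 41.5 and 84.3 CPM with TGFβ (log2 fold change 2.59, adjusted p = 0.00981), and 21.2 and 55.5 CPM in the untreated cells of the Wnt3a experiment. The Wnt3a experiment values of Mmp9 and Timp1 come from cells cultured for 3 days instead of 4. Timp1 failed without untreated replicate 1, untreated replicate 2 or treated replicate 2 (adjusted p = 0.0742, 0.075 and 0.18).

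Integrin and contractile genes were examined next, beside the 3.68% higher and 2.44% lower over all genes tested. Of 15 integrin subunits 3 rose and none fell (median 0.71). Beside Itgb3 these were Itgb5, with 236 and 150.2 CPM without and 849 and 904 CPM with TGFβ (log2 fold change 2.21, SE 0.52, adjusted p = 0.00432), and Itga9. The latter had 0.214 and 0.248 CPM and 4.85 and 6.81 CPM (log2 fold change 2.46, SE 0.09, adjusted p = 2.3e-20). The SE of Itga9 rests on the spread shared by all conditions, and Itga9 was at or below 0.131 CPM in dm/fl and fl/fl cells. This SE may therefore understate the spread of the dm/- samples. With edgeR on the reads the adjusted p of Itga9 was 0.00143. Itgb5 failed without untreated replicate 2 (adjusted p = 0.104). Of 20 actin and contractile genes 9 rose and none fell (median 1.30). Vcl, encoding vinculin of focal adhesions, rose from 253 and 279 CPM to 949.5 and 1236 CPM (log2 fold change 2.03, SE 0.26, adjusted p = 1.5e-06), and passed each time 1 library was left out. Lmcd1, encoding a LIM domain protein of cardiac and smooth muscle, rose from 0.275 and 0.248 CPM to 5.19 and 5.75 CPM (log2 fold change 2.36, adjusted p = 9.5e-04). The smooth muscle genes Acta2 and Myl9 were at or near 0 without TGFβ, with 0.0611 and 0 CPM for Acta2 and 0 in both samples for Myl9, and had 1.78 and 7.87 CPM and 0.833 and 5.52 CPM in the treated samples (adjusted p = 0.00133 and 0.0135). Acta2 failed without treated replicate 2 (adjusted p = 0.147), and Myl9 without either untreated sample or treated replicate 2 (adjusted p = 0.0872, 0.0962 and 0.529). Of the 9 contractile calls 4 were left without untreated replicate 1 and without untreated replicate 2, 8 without treated replicate 1 and 2 without treated replicate 2.

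The gene of β-catenin itself, Ctnnb1 (Entrez 12387), had 770.4 and 897 CPM without and 1234 and 1061 CPM with TGFβ (log2 fold change 0.46, adjusted p = 0.316). The reads of a gene are added up over its exons, so these values show neither the dm allele nor the deletion. Of 11 genes for β-catenin and its partners none passed the test in either direction, with limma or with edgeR (median 0.46). At an unadjusted p of 0.05, 4 were higher and 0 lower, but the share of all genes at this threshold was not determined. The transcriptional cofactor genes Bcl9 and Bcl9l had 43.8 and 38.8 CPM and 106 and 64.2 CPM without and 105 and 72.6 CPM and 175 and 89.9 CPM with TGFβ (adjusted p = 0.0826 and 0.895). Of 20 Wnt ligands, receptors and secretion factors tested 3 rose and 2 fell, compared with 3.68% and 2.44% of all genes tested. Fzd7, a receptor for Wnt ligands, rose from 18 and 20.9 CPM to 84.98 and 99.8 CPM (log2 fold change 2.19, SE 0.27, adjusted p = 4.3e-07), and the values within each group were close together. Fzd2 had 13.4 and 8.06 CPM and 42.5 and 40.7 CPM (log2 fold change 1.90, adjusted p = 0.0376) but failed whichever of the 4 libraries was left out (adjusted p = 0.0743 to 0.343). The ligand gene Wnt7a fell from 202 and 219 CPM to 53.4 and 37.9 CPM (log2 fold change -2.20, SE 0.46, adjusted p = 0.00141). Wnt4 had 11.4 and 6.58 CPM and 4.73 and 0.793 CPM (log2 fold change -1.60, adjusted p = 0.0475), which failed without untreated replicate 1, untreated replicate 2 or treated replicate 2 (adjusted p = 0.371, 0.0811 and 0.719) and with edgeR (adjusted p = 0.194).

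Classical Wnt target genes moved in both directions, with 2 of 16 genes higher and 4 lower (median 0.01). Over all genes tested 3.68% were higher and 2.44% lower. Myc, the growth-promoting transcription factor (Entrez 17869, chromosome 15 from 61985341 to 61990361), fell from 441 and 287 CPM to 102 and 63.7 CPM (log2 fold change -2.13, SE 0.48, adjusted p = 0.00284). Ccnd1, encoding cyclin D1 (Entrez 12443, chromosome 7 from 144929931 to 144939831), fell from 586 and 574 CPM to 134 and 196 CPM (log2 fold change -1.83, SE 0.38, adjusted p = 0.00121). Sox9, a transcription factor of mammary progenitor cells, fell from 169 and 118 CPM to 63.96 and 30.8 CPM (log2 fold change -1.64, adjusted p = 0.00423). Rnf43, which removes Wnt receptors from the membrane, had a log2 fold change of -1.41 (adjusted p = 5.1e-04). The transcription factor genes Tcf7l2 and Tcf7 rose by 1.86 and 1.21 on the log2 scale (adjusted p = 2.3e-06 and 0.00112). Tcf7l2 had 16.7 and 11.95 CPM without and 58.4 and 50.3 CPM with TGFβ. Axin2, the usual readout of β-catenin-dependent transcription, was detected with 1 read in untreated replicate 1 and with none in the other samples, so no fold was given. Ccnd1, Tcf7l2, Tcf7, Rnf43, Fzd7 and Wnt7a passed each time 1 library was left out, whereas Myc and Sox9 failed without untreated replicate 1 (adjusted p = 0.0748 and 0.0981) and without treated replicate 2 (adjusted p = 0.0823 and 0.194). The cell cycle genes given above were lowest in treated replicate 1, where Ccnd1 was lowest as well, and their part in these changes was not tested.

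Of 21 chemokines and cytokines 5 fell and none rose (median -0.06), compared with 2.44% and 3.68% of all genes tested. Ccl20, which attracts CCR6-positive lymphocytes, fell from 8.19 and 8.45 CPM to 0.189 and 0.165 CPM (log2 fold change -2.98, SE 0.57, adjusted p = 5.2e-04). Csf3, encoding the granulocyte growth factor G-CSF, fell from 33.2 and 22.3 CPM to 2.54 and 2.68 CPM (log2 fold change -2.97, SE 0.61, adjusted p = 0.00119). Both passed each time 1 library was left out. Il1a and Il1rn, the ligand and the natural antagonist of the interleukin 1 receptor, had log2 fold changes of -2.55 and -1.62 (adjusted p = 0.0439 and 0.0287) but failed whichever library was left out (adjusted p = 0.145 to 0.218 and 0.074 to 0.213). Of 20 interferon-stimulated genes 1 rose, Oasl2, a number near the 3.68% that rose over all genes. Oasl2 had 9.26 and 10.1 CPM without and 56.1 and 65.7 CPM with TGFβ (log2 fold change 2.53, adjusted p = 0.0156). It failed whichever library was left out (log2 fold change 2.42 to 2.64) and with edgeR (adjusted p = 0.088). The stearoyl-CoA desaturase genes Scd2 and Scd1 rose, as 2 of 20 genes of cholesterol and fatty acid synthesis (median 0.55). Scd2 had 1896 and 1627 CPM without and 6809 and 5292 CPM with TGFβ (log2 fold change 1.77, SE 0.40, adjusted p = 0.00297). Scd1 had 1093 and 1004 CPM and 4374 and 1988 CPM (log2 fold change 1.49, SE 0.44, adjusted p = 0.0306). Scd2 failed without untreated replicate 2 (adjusted p = 0.0534), and Scd1 without untreated replicate 1, untreated replicate 2 or treated replicate 1 (adjusted p = 0.122, 0.197 and 0.475). Of 22 glycolysis and hypoxia genes none passed the threshold with limma or edgeR. Hexokinase 2 (Hk2) came closest, with 233 and 213 CPM without and 429.5 and 449 CPM with TGFβ (log2 fold change 0.97, adjusted p = 0.0472), below the required size of change. It was the only gene of the list with an unadjusted p of at most 0.05, a threshold at which the share of all genes was not determined.

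Next, the response of dm/- cells was compared with that of dm/fl cells, which carry the floxed allele as well. Genotype and cell line cannot be told apart in this comparison. In dm/fl cells themselves 3.45% of the genes tested rose and 6.88% fell. The response of dm/- cells was more positive for 760 genes (5.53% of those tested) and more negative for 245 genes (1.78%), by the interaction of genotype and TGFβ in the same limma fit. The same interaction tested with edgeR gave 418 and 150 genes. Without dm/fl untreated replicate 1 the counts were 425 and 141 genes, without dm/fl treated replicate 2 they were 494 and 176, and without dm/- untreated replicate 2 they were 517 and 154. For 515 of the 760 genes the level fell in dm/fl cells, for 201 it rose in dm/- cells, and for 46 of these both applied. For 520 of the 760 genes the untreated level was at least 2-fold lower in dm/- than in dm/fl cells, on the log2(CPM + 1) scale. Vim is an example: dm/fl cells had 1501 and 1182 CPM without and 1497 and 1216 CPM with TGFβ, while dm/- cells rose from 0.0917 and 0.212 CPM to 67.2 and 242 CPM (difference 6.79, SE 1.09, adjusted p = 4.5e-05), below the level of dm/fl cells in all samples. Pdgfrb fell in dm/fl cells from 227 and 145 CPM to 28.2 and 26.3 CPM (difference 7.62, SE 1.01, adjusted p = 2.2e-06), so that the treated levels of the genotypes overlapped (16.97 and 99.4 CPM in dm/- cells). The collagen VI gene Col6a1, with 689 and 342 CPM without and 10.9 and 4.70 CPM with TGFβ in dm/fl cells and 2.26 and 0.778 CPM and 22 and 10.2 CPM in dm/- cells, had the most positive difference (difference 8.62, SE 1.12, adjusted p = 1.6e-06). Other more positive responses were those of the lipopolysaccharide-binding protein gene Lbp (difference 7.97, SE 0.86, adjusted p = 6.1e-08), the small proteoglycan gene Ogn (difference 6.96, SE 0.91, adjusted p = 2.0e-06) and Gprin3 (difference 6.61, SE 0.55, adjusted p = 1.6e-10). Lbp had 80.9 and 37.6 CPM without and 0.218 and 0.263 CPM with TGFβ in dm/fl cells, and 1.10 and 0.672 CPM and 14.9 and 5.72 CPM in dm/- cells. Ogn was at or below 0.151 CPM in the dm/- samples and fell from 407 and 149 CPM to 2.56 and 0.131 CPM in dm/fl cells. Gprin3 rose from 1.38 and 0.424 CPM to 38.02 and 37.9 CPM in dm/- cells and fell from 18.9 and 16.7 CPM to 2.93 and 3.22 CPM in dm/fl cells. Among the interferon-stimulated genes the response was more positive for 14 of 20, compared with 5.53% of all genes, with a median difference of 2.88. In dm/fl cells 15 of these 20 genes fell, as Ifit3 with 76.5 and 20.3 CPM without and 0.748 and 0.493 CPM with TGFβ, and Ifit3 had 0.672 and 0.566 CPM and 1.21 and 0.231 CPM in dm/- cells. Ifit3 has a close copy in the genome, so its reads are uncertain.

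The most negative difference to dm/fl cells was that of Areg. It rose in dm/fl cells from 19.6 and 19.9 CPM to 80.6 and 94.2 CPM and fell in dm/- cells from 66.8 and 92.6 CPM to 7.65 and 6.21 CPM (difference -5.42, SE 0.96, adjusted p = 1.7e-04). Myc and Ccnd1 belonged to the genes with a more negative response as well. Myc had 87.8 and 107 CPM without and 166 and 133 CPM with TGFβ in dm/fl cells (difference -2.73, SE 0.67, adjusted p = 0.00679). Ccnd1 had 1011 and 1038 CPM and 1121 and 1009.9 CPM there (difference -1.89, SE 0.54, adjusted p = 0.0219), in contrast to the lower levels of treated dm/- cells given above. Other genes rose in dm/fl cells and were not detected or stayed low in dm/- cells. The endothelial cadherin gene Cdh5 had 0.0932 and 0.0956 CPM without and 35.03 and 33.99 CPM with TGFβ in dm/fl cells and was at 0 in the 4 dm/- samples (difference -5.02, SE 0.37, adjusted p = 1.4e-11). The P-selectin gene Selp had 0.124 and 0.0956 CPM and 33.2 and 51.1 CPM in dm/fl cells and at most 0.132 CPM in dm/- cells (difference -5.16, SE 0.31, adjusted p = 5.4e-14). Havcr2, encoding the immune receptor TIM-3, had 0.994 and 0.701 CPM and 31.2 and 33.4 CPM in dm/fl cells and 0.336 and 1.31 CPM and 0.492 and 1.78 CPM in dm/- cells (difference -3.96, SE 0.55, adjusted p = 4.4e-06). The semaphorin gene Sema7a (difference -4.77, SE 0.72, adjusted p = 1.5e-05) rose in dm/fl cells from 0.901 and 0.829 CPM to 41.1 and 13.6 CPM and had 3.91 and 7.74 CPM and 2.27 and 2.15 CPM in dm/- cells. Hhip, which fell in dm/- cells, was at most 0.263 CPM in dm/fl cells (difference -4.16, SE 0.59, adjusted p = 5.6e-06). The differences of Selp, Cdh5 and Ogn, which were at or near 0 in dm/- cells, did not pass with edgeR (adjusted p = 0.373, 1 and 0.102).

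The response of dm/- cells was compared with that of fl/fl cells, without the dm allele, in the same way. In fl/fl cells 3.31% of the genes tested rose and 2.94% fell. The response of dm/- cells was more positive for 224 genes (1.63%) and more negative for 159 genes (1.16%), a comparison that uses the same dm/- samples as the one with dm/fl cells. With edgeR these counts were 125 and 38 genes, and without dm/- untreated replicate 2 they were 135 and 111. Palld had the most positive difference, with 107 and 123 CPM without and 171 and 186 CPM with TGFβ in fl/fl cells (difference 5.76, SE 0.49, adjusted p = 4.1e-10). Its treated level in dm/- cells (123 and 227 CPM) lay in the same range, and the untreated level set the genotypes apart. Tnc rose in fl/fl cells as well, from 667 and 837 CPM to 19931 and 19103 CPM (difference 4.72, SE 0.90, adjusted p = 0.00104), and was higher there than in dm/- cells with and without TGFβ. Gprin3 was more positive here too (difference 5.31, SE 0.55, adjusted p = 3.2e-08), and so were Cbr2 (difference 5.19, SE 1.02, adjusted p = 0.00142), Krt6a (difference 4.67, SE 1.23, adjusted p = 0.0256) and Orm1 (difference 4.61, SE 1.04, adjusted p = 0.00665), which fell in fl/fl cells from 85.4 and 53.1 CPM, 31.1 and 30.3 CPM and 18.9 and 35.5 CPM to 1.82 and 2.32 CPM, 0.133 and 0.331 CPM and 0.399 and 0.552 CPM. In dm/- cells Cbr2, Krt6a and Orm1 did not pass the test, with log2 fold changes of 0.70, -0.02 and 0.42. Krt6a failed without 6 of the 8 libraries of both genotypes, the exceptions being dm/- untreated replicate 1 and dm/- treated replicate 2 (adjusted p = 0.0145 to 0.213 over the 8). Orm1 failed without dm/- untreated replicate 2, dm/- treated replicate 1 or fl/fl untreated replicate 2 (adjusted p = 0.0539, 0.0855 and 0.054). Krt6a and Orm1 have close copies in the genome, so their reads are uncertain. Fzd7 rose in dm/- cells, while dm/fl cells had 44.6 and 43.8 CPM without and 28.8 and 19.7 CPM with TGFβ (difference 3.06, SE 0.38, adjusted p = 7.9e-07) and fl/fl cells 48.8 and 63.6 CPM and 24 and 29.1 CPM (difference 3.24, SE 0.38, adjusted p = 4.4e-07).

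The cytokine genes Csf2 and Il11 had the most negative differences to fl/fl cells. Csf2, encoding GM-CSF, rose in fl/fl cells from 1.69 and 1.35 CPM to 125 and 106 CPM and had 1.99 and 5.02 CPM without and 0.644 and 9.02 CPM with TGFβ in dm/- cells (difference -5.59, SE 0.82, adjusted p = 3.1e-05). Il11 rose in fl/fl cells from 2.94 and 3.41 CPM to 116 and 264 CPM and had 1.83 and 1.34 CPM and 1.78 and 8.16 CPM in dm/- cells (difference -4.43, SE 0.54, adjusted p = 1.1e-06). The vascular peptide gene Apln fell in dm/- cells from 41.3 and 51.8 CPM to 8.67 and 5.92 CPM and had 5.27 and 17.7 CPM and 37.8 and 40.01 CPM in fl/fl cells (difference -4.41, SE 0.61, adjusted p = 1.1e-05). Mmp9 rose in both genotypes, in fl/fl cells from 5.35 and 7.04 CPM to 1922 and 1949 CPM (difference -4.24, SE 1.22, adjusted p = 0.0497). Its difference failed with edgeR (adjusted p = 0.2) and without 7 of the 8 libraries, the exception being dm/- treated replicate 2 (adjusted p = 0.0107 to 0.447 over the 8). Dgkk, encoding a diacylglycerol kinase, also rose in both, with 3.10 and 4.45 CPM and 586 and 663 CPM in fl/fl cells against 3.94 and 3.39 CPM and 27.9 and 34.1 CPM in dm/- cells (difference -4.27, SE 0.81, adjusted p = 0.00104). Hmgcll1 rose in fl/fl cells from 0.242 and 0.524 CPM to 27.4 and 31.6 CPM and was at or below 0.264 CPM in dm/- cells (difference -4.30, SE 0.59, adjusted p = 8.6e-06), a difference that failed with edgeR (adjusted p = 1).

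**Figure D4:**
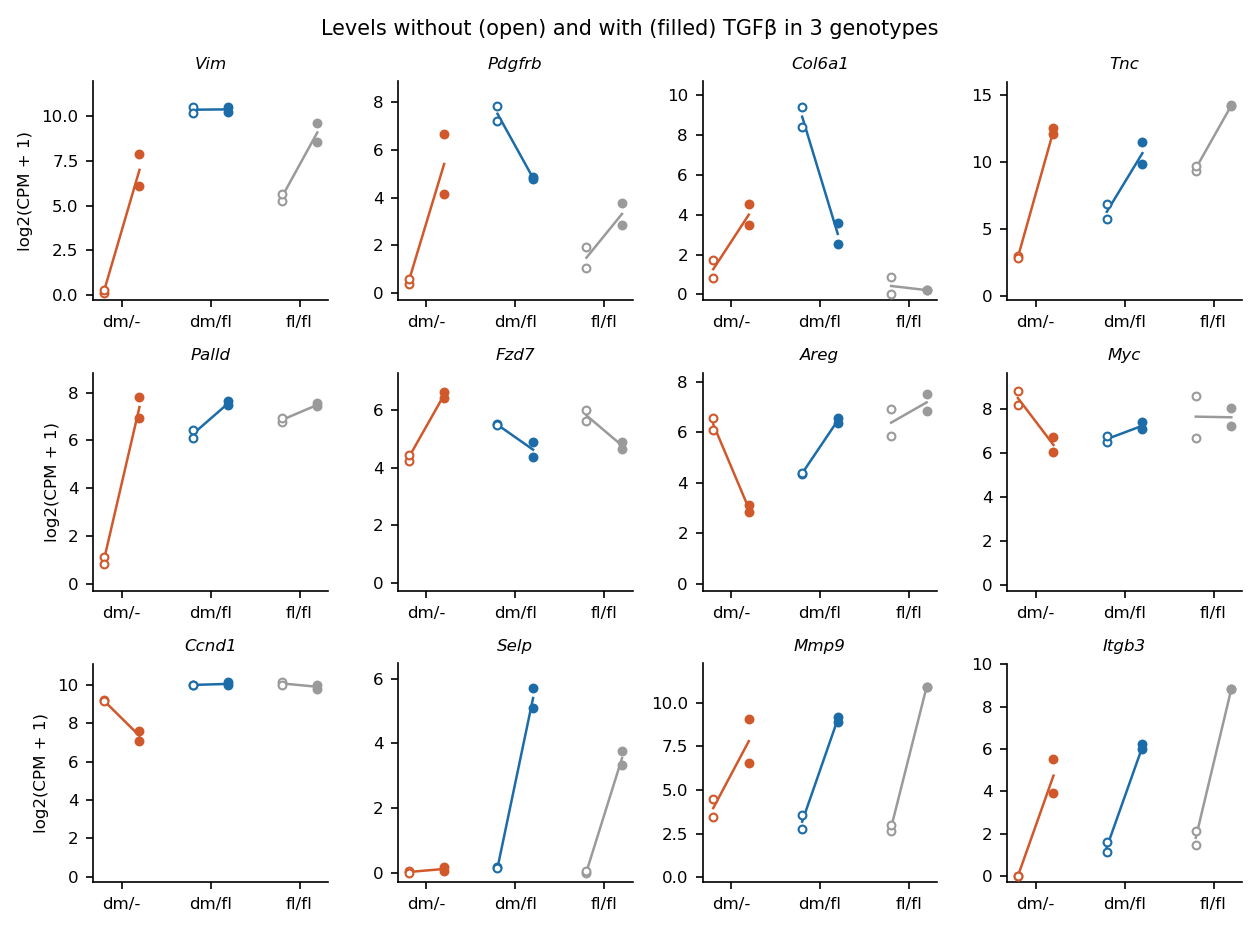
Levels of 12 genes in dm/- (orange), dm/fl (blue) and fl/fl cells (gray) of the TGFβ experiment, as log2(CPM + 1). Open circles are untreated and filled circles treated samples, and lines join the means of the 2 samples. The untreated dm/- samples are below the untreated samples of both other genotypes for Vim, Pdgfrb, Tnc, Palld, Fzd7, Ccnd1 and Itgb3. The lines of dm/- cells run against those of dm/fl cells for Pdgfrb, Col6a1, Fzd7, Areg and Myc, and for Ccnd1 the line of dm/fl cells is nearly flat.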

How the data were processed

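RNA from 56 samples was sequenced as stranded poly(A) libraries. Per the study's methods, the authors aligned the reads with STAR to mm10, counted unique hits in RefSeq exons with QuasR and tested them with edgeR. The deposited table holds CPM for 20314 genes, that is, a normalized signal for which the authors scaled each gene's reads by the effective size of the library. Whole reads could be recovered for all values (tolerance 0.001). Whether the counting used the strand is not given in the sources used here, so overlapping antisense genes and close copies are uncertain. Entrez identifiers were matched to RefSeq symbols (20261 of 20314). Samples were grouped by genotype and treatment as labeled. Log2(CPM + 1) values of 13754 genes (1 CPM or more in 2 or more samples) were fitted with limma 3.58.1 in R 4.3.3, with 1 coefficient for each of 28 conditions and a trended prior, so all conditions shared the spread (28 residual degrees of freedom). Tests were two-sided, adjusted after Benjamini and Hochberg over all genes tested, and called at an adjusted p up to 0.05 where the log2 fold change was 1 or more in size. Differences between genotypes are interaction contrasts. Further settings were edgeR 4.0.16 quasi-likelihood on the whole reads, another pseudocount, no filter, median-of-ratios scaling, fewer samples, a replicate block, removal of the GC trend, the untreated dm/- cells of the Wnt3a experiment as control, and each library left out. The scripts were tested on simulated data. Depth was 24.8 to 30.0 M reads in the dm/- samples, so that 3 reads, taken as the limit of detection, correspond to 0.0917 to 0.114 CPM, which covers counting error only. Named were the 10 largest increases and 10 largest decreases with non-overlapping groups and at least 10 CPM, up to 4 changed genes in each of 21 lists, 22 fixed genes and the 6 largest differences in each direction. Other list members, such as Sparc, Thbs1, Foxa1, Ovol2, Top2a, Mcm3, Ocln and the marker genes, were named after their values were seen, and some members are not reported here. The lists and genes were chosen with earlier results of these data known.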

Additional observations from a re-analysis of the deposited data

Results flagged for a closer look

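Differences between the response of dm/- cells and that of another genotype were picked out by the interaction test. Against dm/fl cells 760 genes were more positive and 245 more negative, and against fl/fl cells 224 and 159. In units of log2(CPM + 1), the differences to dm/fl cells were 8.62 for Col6a1, 7.97 for Lbp, 7.62 for Pdgfrb, 6.96 for Ogn, 6.79 for Vim and 6.61 for Gprin3. More negative were Areg with -5.42, Selp with -5.16, Cdh5 with -5.02, Sema7a with -4.77, Hhip with -4.16, Havcr2 with -3.96, Myc with -2.73 and Ccnd1 with -1.89. The differences to fl/fl cells were 5.76 for Palld, 5.31 for Gprin3, 5.19 for Cbr2, 4.72 for Tnc, 4.67 for Krt6a and 4.61 for Orm1, and in the negative direction -5.59 for Csf2, -4.43 for Il11, -4.41 for Apln, -4.30 for Hmgcll1, -4.27 for Dgkk and -4.24 for Mmp9. Both comparisons share the dm/- samples. The genotype and the cell line that carries it cannot be told apart.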

How the results depend on the processing

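The 506 higher and 336 lower genes of dm/- cells became 102 and 44 when the fit held only the 4 samples compared, 757 and 589 with only the TGFβ experiment, 710 and 734 with the untreated dm/- cells of the Wnt3a experiment as control, and 294 to 420 and 169 to 312 with 1 library left out. The 760 more positive and 245 more negative differences to dm/fl cells became 418 and 150 with edgeR, 1104 and 572 with only the samples compared, 1389 and 650 with only the TGFβ experiment, 925 and 406 with the GC trend removed, and 425 to 738 and 141 to 217 with 1 library left out. The 224 and 159 differences to fl/fl cells became 125 and 38 with edgeR, 452 and 298 with only the TGFβ experiment, and 135 to 214 and 111 to 144 with 1 library left out. Another pseudocount, no filter and median-of-ratios scaling moved no count by over 1.5 times. With a replicate block the counts were 744 and 638 in dm/- cells, 1278 and 660 against dm/fl cells and 498 and 392 against fl/fl cells. Block and GC correction together gave 732 and 725, 1456 and 894, and 603 and 592. The deviations of same-numbered untreated and treated samples correlated at 0.456 in dm/-, 0.519 in dm/fl and 0.660 in fl/fl cells, but with 2 pairs a genotype and no shared day or culture in the labels the samples share only a number. Of the named genes that had not passed, Krt14, Bcl9, Mcm3 and Snai1 passed with the block (adjusted p = 0.0194, 0.00948, 1.6e-06 and 0.0399), and Krt16, Bub1 and Zeb2 also did with the block and the GC trend removed. Of the 21 cell cycle genes, none of which had passed, 8 fell with the block, 13 with the block and the GC trend removed, and 10 with the Wnt3a control. Of the 117 changes and differences of named genes, 59 lost their call with only the samples compared, 9 with edgeR, and 20, 22, 13 and 27 without dm/- untreated replicate 1, untreated replicate 2, treated replicate 1 and treated replicate 2. The 117 include changes that had not passed in the main fit, such as those of Tgfbr1, Ctnnb1 and Cdh1, which had no call to lose. Direction changed for Ltbp1 to -0.36 with the Wnt3a control, for Cdh1 to 0.0927 without treated replicate 2 (range -1.74 to 0.0927 with 1 library left out), and for Smad3 to -0.0294 with the GC trend removed, with or without the block, to -0.12 without untreated replicate 1 (range -0.12 to 0.216) and to -0.73 with the Wnt3a control. The Wnt3a control was cultured for 3 days instead of 4, and the causes were not tested. Below about 1 CPM, folds are understated and depth limits what could be detected.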

Other observations

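Markers of the mammary cell lineages are given here as whole lists, beside the 3.68% higher and 2.44% lower over all genes tested. Of 11 luminal markers 1 fell, Areg, and none rose, and their sum was 1647 and 1546 CPM in the untreated and 2049 and 1438 CPM in the treated dm/- samples. Gata3, a luminal transcription factor, had 55.2 and 45.8 CPM without and 60.8 and 50.8 CPM with TGFβ, and Esr1, encoding estrogen receptor α, 7.73 and 9.09 CPM and 7.42 and 4.86 CPM. Of 7 basal markers 6 were tested and 1 rose, Acta2, and their sum was 129 and 52.7 CPM without and 531 and 251 CPM with TGFβ, most of it Krt14. The basal transcription factor gene Trp63 had 1.25 and 0.672 CPM without and 1.40 and 0.397 CPM with TGFβ. Endothelial markers summed to 0.0991 to 0.227 CPM and adipocyte markers to 1.69 to 5.71 CPM over the 4 samples.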
